A study of Rattus norvegicus with 12 samples.

Results

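Interferon-induced GTPases are described here in neonatal rat ventricular myocytes (NRVMs): Mx1, Mx2, Gbp1, Gbp2, Gbp4, Gbp5, Igtp and Irgm. These 8 of the 18483 genes in the deposited tables were taken by gene symbol from the Mx, guanylate-binding and immunity-related GTPase families. The cells came from newborn Sprague-Dawley rats and were studied as bulk cultures in 4 groups of 3 independent biological replicates, 12 libraries in all. The siNeg group received a control siRNA, and siSlc39a2 received an siRNA, of 1 sequence, that targets Slc39a2, a zinc importer of the plasma membrane. In siNeg PE and siSlc39a2 PE, phenylephrine (PE), an agonist of the alpha-1 adrenergic receptor that drives hypertrophy, was given from 12 h after transfection for 36 h by the labels. In such cultures, fewer cells of a type and less RNA per cell cannot be told apart.

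Interferons switch on large GTPases that act inside the cell against viruses, bacteria and vacuolar parasites. Mx proteins are dynamin-like and assemble on viral nucleoprotein complexes. Guanylate-binding proteins coat pathogens and damaged vacuoles and feed inflammasome assembly, and immunity-related GTPases guard endomembranes and steer autophagy. Type I interferon acts largely through the interferon-stimulated response element (ISRE) of its target genes, and type II interferon through the gamma-activated sequence (GAS).

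Promoter windows were read to show the letters in front of the genes described. RefSeq promoters of assembly GRCr8 were found for 7 of the 8 genes, with 2 start sites for Gbp1 and no entry for Mx2. The 250 bases before each start were searched on both strands for an ISRE core (GAAA, 2 bases of any kind, GAAA) and a GAS core (TTC, 3 bases of any kind, GAA), and matches to the 2 cores may overlap. The ISRE core was present in 6 of the 7 genes, against 992 of all 27457 genes searched and 314 of the 10832 of them tested here. Counted by promoter, it was in 3.41% of all 33469 promoters and 2.65% of the 12292 promoters of the genes tested here. The GAS core was present in 2 of the 7 genes, Igtp and Irgm, against 2250 and 709 of the same genes. By promoter the GAS shares were 7.67% and 6.24%. No match was found for Mx1 or for the upstream start of Gbp1, which says only that these letters are not in those windows. A match is a description and not a bound site.

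The windows with a match are given 5′ to 3′ on the gene's strand because they differ in number, position and direction of the match, and capitals mark the cores. For Gbp1 the 250 bases before its downstream start are given (chr2:234072187-234072436, plus strand), which hold 3 ISRE cores, the last 2 of them overlapping. For the others the last 120 bases before the start are given: chr2:234005607-234005726, chr2:233978366-233978485 and chr2:233910879-233910998 on the plus strand for Gbp2, Gbp4 and Gbp5, chr10:42874927-42875046 on the plus strand for Igtp, and chr10:33742579-33742698 on the minus strand for Irgm.
Gbp1: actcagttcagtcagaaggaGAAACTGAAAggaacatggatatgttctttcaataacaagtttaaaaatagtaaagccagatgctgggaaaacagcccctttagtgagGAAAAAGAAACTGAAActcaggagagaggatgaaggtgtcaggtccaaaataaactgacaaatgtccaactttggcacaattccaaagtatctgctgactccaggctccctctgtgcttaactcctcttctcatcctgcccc
Gbp2: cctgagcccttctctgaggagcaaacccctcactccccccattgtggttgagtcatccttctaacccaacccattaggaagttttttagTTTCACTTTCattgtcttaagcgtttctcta
Gbp4: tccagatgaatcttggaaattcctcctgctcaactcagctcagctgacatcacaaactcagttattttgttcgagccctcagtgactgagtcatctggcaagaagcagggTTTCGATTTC
Gbp5: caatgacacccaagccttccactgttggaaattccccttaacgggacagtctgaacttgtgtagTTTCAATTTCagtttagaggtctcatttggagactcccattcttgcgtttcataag
Igtp: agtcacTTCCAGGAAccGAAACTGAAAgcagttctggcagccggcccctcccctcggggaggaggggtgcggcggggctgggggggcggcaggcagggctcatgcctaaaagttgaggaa
Irgm: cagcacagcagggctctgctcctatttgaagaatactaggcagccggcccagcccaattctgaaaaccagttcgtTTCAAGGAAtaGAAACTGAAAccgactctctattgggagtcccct
In Gbp2, Gbp4 and Gbp5 the core was read on the opposite strand, at 31 to 22, 10 to 1 and 56 to 47 bases before the start. In Igtp and Irgm a GAS core stood directly before an ISRE core, at 114 to 106 and 103 to 94 bases in Igtp and at 45 to 37 and 34 to 25 bases in Irgm.

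**Figure D1:**
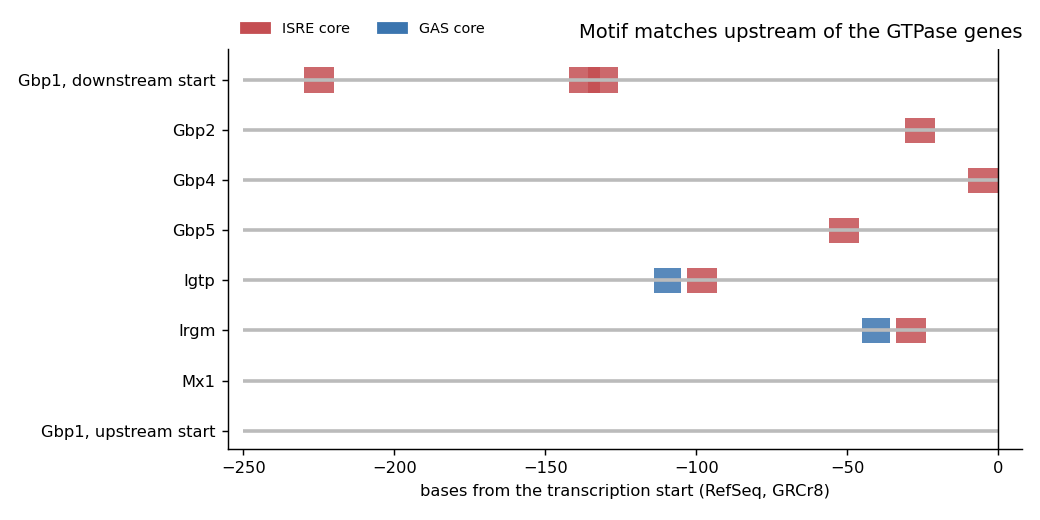
Position of the ISRE and GAS cores in the 250 bases before RefSeq transcription starts (x axis, bases from the start, which is at 0). Each grey line is 1 promoter, red boxes are ISRE cores and blue boxes GAS cores; the downstream start of Gbp1 holds 3 red boxes, and Mx1 and the upstream start of Gbp1 hold none.

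Total expected counts were between 24065539 and 28603854 per library. Expected counts share a read that matches several genes between those genes, so they need not be whole. Slc39a2 itself, the targeted gene, was counted 50, 50 and 59 times in the siNeg libraries and 21, 11 and 2 times after its knockdown. With PE the counts were 95, 198 and 182 in siNeg PE and 31, 25 and 38 after the knockdown. Summed markers of cardiomyocytes (8 of 8 genes) were 43590 to 44966 CPM (counts scaled to normalized library size) in siNeg and 32702 to 34059 in siSlc39a2. Of these, 1 of 8 passed the test as lower, against 5.21% of genes tested. Mean CPM of Myh6 was 15858 in siNeg and 7407 in siSlc39a2, of Myh7 13917 and 13448, and of Tnnt2 5082 and 5366. The means of Tnni3, Actn2, Ryr2, Nkx2-5 and Mybpc3 were lower in siSlc39a2. Markers of fibroblasts (8 of 8) summed to 13859 to 18345 CPM in siNeg and to 5338 to 5643 CPM in siSlc39a2, with 4 of 8 passing the test as lower, against 5.21% of genes tested. Most of this sum was Col1a1, with a mean of 10756 CPM in siNeg and 3351 in siSlc39a2. The means of Col1a2, Col3a1, Dcn, Lum and Postn were also lower. Those of Tcf21 (27.4 CPM in siNeg, 34.7 in siSlc39a2) and Pdgfra (41.1 and 44.7) were higher. Macrophage markers (7 of 8 in the table) summed to 18.8 to 22.6 CPM in siNeg and 11.4 to 12.6 with PE. After knockdown they summed to 13.4 to 15.3 and after knockdown with PE to 8.31 to 9.40. Of the 6 tested, 1 was higher in siSlc39a2 against siNeg, Aif1, against 4.57% of genes tested. Endothelial markers (8 of 8) summed to 17.3 to 27.3 CPM over all libraries. Lymphocyte markers (3 of 8 in the table) summed to 0.169 to 0.828 CPM, with Cd3e at 0 in siNeg, siNeg PE and siSlc39a2 PE and Cd2 at 0 in siSlc39a2. The part of these marker levels in the GTPase results was not tested.

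The comparison of siSlc39a2 with siNeg asks how these transcripts differed in resting NRVMs given the Slc39a2 siRNA. As 1 siRNA sequence was used, loss of Slc39a2 and other effects of that siRNA cannot be told apart in these libraries. The knockdown stands below for treatment with that siRNA. All 8 GTPases were higher in siSlc39a2, from 21.9-fold for Igtp to 605-fold for Mx1. A gene was counted at an absolute log2 fold change over 1 and an adjusted p under 0.05 in edgeR's quasi-likelihood test, and 4.57% of the 13967 genes tested were higher by that rule. No library of siSlc39a2 overlapped a library of siNeg in CPM for any of the 8, as held in that direction for 27.9% of the genes tested. The median log2 fold change was 6.01 over the 8 genes and -0.02 over all genes tested. Gbp4 was past the cutoff of the filter on low counts, 0.364 CPM, in 2 siNeg libraries, 1 siNeg PE library and all 6 knockdown libraries, and the median of the other 7 members was 5.67. The 8 genes together took 0.00350% to 0.00436% of the counts of a siNeg library and 0.330% to 0.397% of a siSlc39a2 library.

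**Figure D2:**
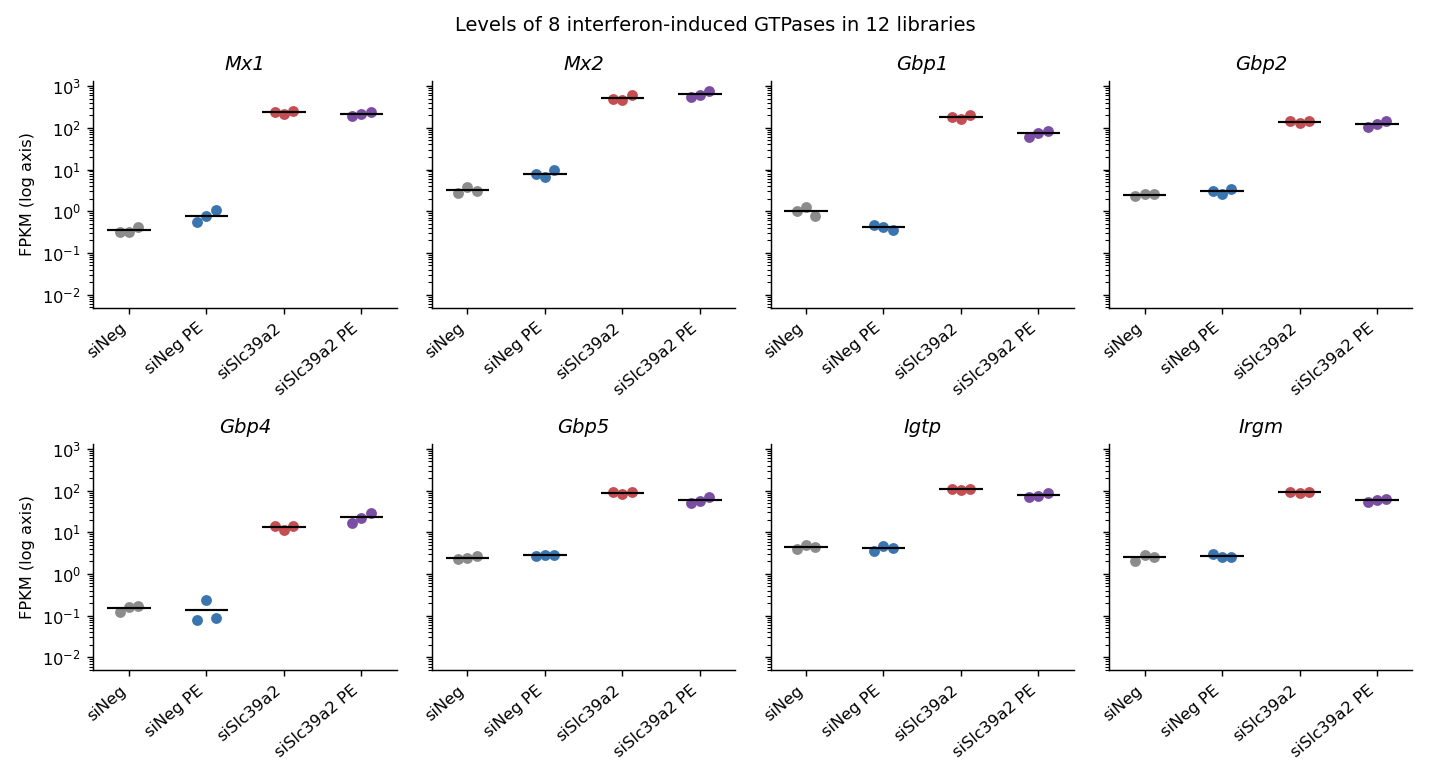
Fragments per kilobase of transcript, scaled to sequencing depth (FPKM, y axis, log scale) of each GTPase in the 4 groups (x axis). Each point is 1 library and each line the mean of 3; in every panel the 6 knockdown libraries lie above the 6 siNeg and siNeg PE libraries.

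Mx1, the nuclear Mx protein of rodents, was low in controls. Its FPKM values were 0.32, 0.32 and 0.41 in siNeg and 0.55, 0.77 and 1.05 in siNeg PE. In siSlc39a2 they were 234.20, 218.70 and 250.71, and in siSlc39a2 PE 190.21, 220.05 and 236.01. All 6 knockdown libraries stood far above all controls, and those with and without PE overlapped. The log2 fold change with the knockdown was 9.24 (SE 0.18, edgeR adjusted p = 7.76e-13) without PE and 8.08 (SE 0.17, adjusted p = 1.59e-12) with PE. In counts, Mx1 went from 27, 27.08 and 34 in siNeg to 20141.56, 19314.42 and 18691.04 in siSlc39a2.

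Mx2, the cytoplasmic Mx protein, was already measurable in controls, at 2.68, 3.77 and 3.0 FPKM in siNeg and 7.90, 6.46 and 9.74 FPKM in siNeg PE. It reached 488.90, 469.05 and 614.72 FPKM in siSlc39a2 and 544.93, 616.79 and 754.09 FPKM in siSlc39a2 PE. The control groups did not overlap each other, while the knockdown groups did. The knockdown raised it 151-fold without PE (log2 fold change 7.24, SE 0.21, edgeR adjusted p = 1.49e-11) and 78.3-fold with PE (6.29, SE 0.20, adjusted p = 3.96e-11). By FPKM it was 8991st of the 18483 genes in siNeg, 211th in siSlc39a2 and 142nd in siSlc39a2 PE.

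Reads of Mx1 and Mx2 could not be fully separated. The counts of both were not whole in 10 of 12 libraries, and in all 10 their decimals summed to a whole number within 0.011. Summed over both genes, the log2 fold change with the knockdown was 7.68 (edgeR adjusted p = 4.68e-12). The FPKM ratio of Mx2 to Mx1 was 9.16 ± 2.33 (SD, n = 3) in siNeg and 10.7 ± 3.22 with PE, and after the knockdown 2.23 ± 0.196 and, with PE, 2.95 ± 0.211. The control ratios (7.32 to 14.4) lay above all knockdown ratios (2.09 to 3.20), and the 2 knockdown groups did not overlap in this ratio.

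Gbp1, whose human counterpart coats bacteria in the cytosol, was the member whose 4 groups were all apart. It stood lowest in siNeg PE (0.46, 0.42 and 0.36 FPKM), then in siNeg (1.04, 1.25 and 0.77 FPKM), siSlc39a2 PE (59.69, 76.24 and 84.29 FPKM) and siSlc39a2 (179.56, 167.17 and 202.46 FPKM). No neighbouring groups in that order overlapped. The knockdown raised Gbp1 by 7.33 on the log2 scale without PE (SE 0.18, edgeR adjusted p = 3.42e-12) and by 7.46 with PE (SE 0.19, adjusted p = 7.76e-12). PE lowered it 2.63-fold in siNeg (log2 fold change -1.39, SE 0.25, adjusted p = 0.000733) and 2.40-fold in siSlc39a2 (-1.26, SE 0.13, adjusted p = 5.2e-06). Its downstream promoter window, shown above, holds 3 ISRE cores, against at most 1 in the windows of the other 6 members that had an entry.

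Gbp4 was the least abundant member in every group by FPKM, at 0.12, 0.16 and 0.17 in siNeg libraries and 0.08, 0.24 and 0.09 with PE, and 13.79, 11.34 and 14.36 in siSlc39a2 libraries and 17.09, 21.61 and 29.21 with PE. In counts it was 8, 12 and 11 in siNeg and 6, 18 and 6.27 in siNeg PE. The control groups overlapped, and every siSlc39a2 PE library was above every siSlc39a2 library. The log2 fold change with the knockdown was 6.35 (SE 0.30, edgeR adjusted p = 2.34e-09) without PE and 7.34 (SE 0.30, adjusted p = 5.31e-10) with PE. Adding PE to the knockdown gave a log2 fold change of 0.84 (SE 0.18, adjusted p = 0.00166), under the threshold on fold change.

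Gbp2 and Gbp5 rose 50.8-fold and 32.2-fold with the knockdown. Gbp2, which binds vacuoles that hold bacteria or parasites, had 2.34, 2.57 and 2.55 FPKM in siNeg libraries and 3.07, 2.57 and 3.51 with PE, and 142.89, 128.30 and 148.14 in siSlc39a2 libraries and 108.00, 123.93 and 146.02 with PE. Groups with and without PE overlapped for Gbp2 on both sides of the knockdown. Its log2 fold change with the knockdown was 5.67 (SE 0.14, edgeR adjusted p = 3.29e-12) without PE and 5.36 (SE 0.13, adjusted p = 5.3e-12) with PE. With PE it was 0.22 (SE 0.14, adjusted p = 0.220) in siNeg and -0.09 (SE 0.10, adjusted p = 0.453) in siSlc39a2. Gbp5, which promotes NLRP3 inflammasome assembly, had 2.25, 2.44 and 2.72 FPKM in siNeg libraries and 2.72, 2.82 and 2.84 with PE, and 90.43, 82.11 and 90.75 in siSlc39a2 libraries and 50.66, 57.58 and 69.70 with PE. Unlike for Gbp2, the knockdown groups of Gbp5 did not overlap. The log2 fold change of Gbp5 with the knockdown was 5.01 without PE (SE 0.12, adjusted p = 2.5e-12) and 4.40 with PE (SE 0.11, adjusted p = 8.08e-12).

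Igtp and Irgm, regulatory immunity-related GTPases of endomembranes, rose 21.9-fold and 32.7-fold with the knockdown, and Igtp was the most abundant member in siNeg. Igtp had 4.01, 4.98 and 4.40 FPKM in siNeg libraries and 3.54, 4.57 and 4.21 with PE, and 110.69, 105.14 and 109.98 in siSlc39a2 libraries and 72.11, 75.09 and 86.81 with PE. Irgm had 2.02, 2.91 and 2.61 FPKM in siNeg libraries and 3.01, 2.49 and 2.52 with PE, and 91.84, 85.95 and 94.32 in siSlc39a2 libraries and 53.51, 58.19 and 64.56 with PE. For both genes the control groups overlapped, and every siSlc39a2 PE library lay below every siSlc39a2 library. The log2 fold change with the knockdown was 4.45 for Igtp (SE 0.10, edgeR adjusted p = 2.2e-12) and 5.03 for Irgm (SE 0.12, adjusted p = 3.84e-12). With PE present it was 4.24 (SE 0.10, adjusted p = 4.42e-12) and 4.45 (SE 0.12, adjusted p = 1.23e-11).

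The counts of Igtp were not whole in 11 of 12 libraries and, added to those of Irgm2, its neighbour in the GRCr8 annotation, became whole within 0.011 in all 11. Igtp and Irgm2 together rose by 4.45 on the log2 scale with the knockdown (edgeR adjusted p = 2.62e-12). Gbp4 was not whole in 4 libraries, and its decimals were completed by LOC100911495, which had at most 2.98 counts. Gbp1, Gbp2, Gbp5 and Irgm were whole in all 12 libraries.

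In PE-treated cells, siSlc39a2 PE against siNeg PE, all 8 members were again higher, against 6.03% of the genes tested. The groups did not overlap for any of the 8, as held for 31.8% of genes. The median log2 fold change was 5.82 over the 8 members, 5.36 over the 7 without Gbp4 and 0.01 over all genes tested. These 2 knockdown comparisons use separate libraries.

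Whether the knockdown effect changed with PE was tested by the interaction, the log2 fold change with PE less that without. The knockdown effect was smaller with PE for Mx1, by 1.16 on the log2 scale (-1.16, SE 0.26, edgeR adjusted p = 0.0311), the 1 member past both thresholds, where 0.537% of genes tested were lower. Mx2 (-0.95, SE 0.24, adjusted p = 0.0490) and Gbp5 (-0.61, SE 0.15, adjusted p = 0.0471) passed on adjusted p alone, as did 1.88% of genes in that direction. Values were -0.58 for Irgm (SE 0.16, adjusted p = 0.0768), -0.31 for Gbp2 (SE 0.18, adjusted p = 0.432), -0.22 for Igtp (SE 0.14, adjusted p = 0.485), 0.13 for Gbp1 (SE 0.28, adjusted p = 0.884) and 0.99 for Gbp4 (SE 0.58, adjusted p = 0.445). These calls were close to the threshold. The adjusted p of Mx1 rose to between 0.0603 and 0.101 without siNeg replicate 1 or 2, siNeg PE replicate 2 or 3, siSlc39a2 replicate 1 or siSlc39a2 PE replicate 2. Leaving out 1 library lifted the adjusted p to 0.05 or over in 9 of 12 cases for Mx2, all but siNeg replicate 2, siNeg PE replicate 2 and siSlc39a2 PE replicate 3, up to 0.121. It did so in 10 of 12 cases for Gbp5, all but siSlc39a2 PE replicates 1 and 3, up to 0.119.

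PE alone was compared in siNeg PE against siNeg, which asks what the hypertrophic stimulus does without the knockdown. Mx1 and Mx2 were higher, 2 of 8 members against 3.80% of genes tested, and Gbp1 was lower, 1 of 8 against 2.80%. Mx1 rose 2.13-fold (log2 fold change 1.09, SE 0.24, edgeR adjusted p = 0.00267) and Mx2 rose 2.44-fold (1.29, SE 0.19, adjusted p = 0.000167). Without siNeg PE replicate 3 the Mx1 value was 0.83 (adjusted p = 0.0118), under the threshold on fold change. The other 5 members were not called, with -0.21 for Igtp (SE 0.11, adjusted p = 0.118), 0.10 for Gbp5 (SE 0.12, adjusted p = 0.497), 0.01 for Irgm (SE 0.13, adjusted p = 0.973), -0.15 for Gbp4 (SE 0.54, adjusted p = 0.831) and the value of Gbp2 given above. The CPM of the groups did not overlap for Mx1 and Mx2, as held upward for 29.3% of genes, nor for Gbp1, as held downward for 30.5%. The median log2 fold change of the 8 was 0.05, and that of all genes tested -0.01.

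In siSlc39a2 PE against siSlc39a2, which shares the knockdown libraries with the comparisons above, Gbp1 was the 1 of 8 members called lower, against 4.17% of genes tested. On adjusted p alone 4 of 8 were lower, against 29.3%, and 1 of 8, Gbp4, was higher, against 30.7%. The log2 fold changes of the other 3 lower genes were -0.57 for Irgm (SE 0.10, edgeR adjusted p = 0.000336), -0.51 for Gbp5 (SE 0.09, adjusted p = 0.000566) and -0.42 for Igtp (SE 0.08, adjusted p = 0.000997). That of Igtp with the reads of Irgm2 added was -0.16 (adjusted p = 0.142). Neither Mx gene passed, at -0.06 for Mx1 (SE 0.11, adjusted p = 0.636) and 0.34 for Mx2 (SE 0.15, adjusted p = 0.0724). The CPM of the groups did not overlap for the 4 lower genes, as held for 32.6% of genes, or for Gbp4, as held for 32.5%.

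**Figure D3:**
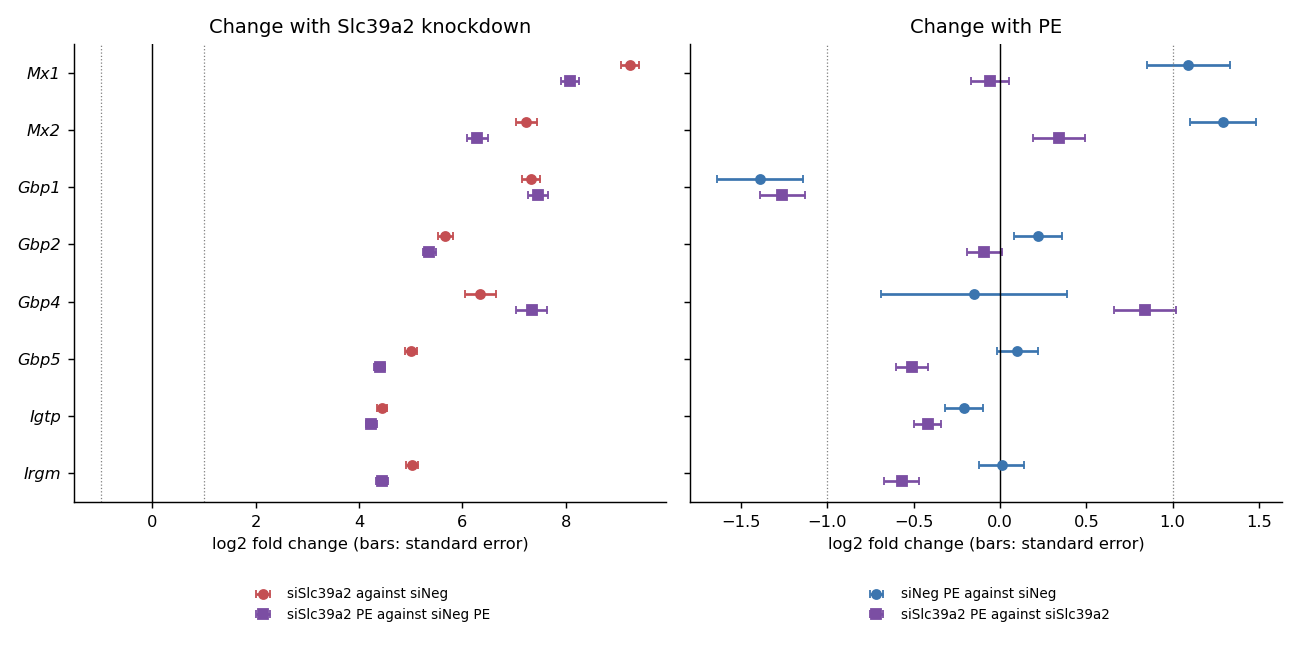
Log2 fold change (x axis, bars are standard errors) of each GTPase (y axis) with the knockdown on the left and with PE on the right; dotted lines mark the threshold of 1. All points on the left lie beyond 4, while on the right Gbp1 alone lies below -1 both without and with the knockdown, and Mx1 and Mx2 lie above 1 in siNeg PE against siNeg.

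In the GRCr8 annotation Gbp5, Gbp4, Gbp2 and Gbp1 lie in this order in 1 cluster on chromosome 2, with Gbp7 between Gbp5 and Gbp4. Within that cluster the FPKM ratio of Gbp1 to Gbp4 was 14.0 ± 0.869 (SD, n = 3) after the knockdown and 3.30 ± 0.361 after the knockdown with PE. The ratio of Gbp1 to Gbp2 was 1.31 ± 0.0553 and 0.582 ± 0.0315 in the same groups. Neither ratio overlapped between them, since Gbp1 fell with PE, Gbp2 had a log2 fold change of -0.09 and Gbp4 one of 0.84.

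The order of the members by FPKM differed between the groups. In siNeg, Igtp led with 4.46 ± 0.488 FPKM (SD, n = 3), and Mx2, Irgm, Gbp2 and Gbp5 followed at 3.15 to 2.47 with neighbours that overlapped. Gbp1 (1.02 ± 0.241), Mx1 (0.350 ± 0.0520) and Gbp4 (0.150 ± 0.0265) came last and were apart from each other. In siNeg PE, Mx2 led without overlap (8.03 ± 1.64 FPKM), ahead of Igtp (4.11 ± 0.523), then Gbp2, Gbp5 and Irgm at 3.05 to 2.67 with neighbours that overlapped, and Mx1 (0.790 ± 0.251), Gbp1 (0.413 ± 0.0503) and Gbp4 (0.137 ± 0.0896) were apart from each other at the end. In siSlc39a2 the order was Mx2 (524 ± 79.0 FPKM), Mx1 (235 ± 16), Gbp1 (183 ± 17.9), Gbp2 (140 ± 10.3), Igtp (109 ± 3.02), Irgm (90.7 ± 4.30), Gbp5 (87.8 ± 4.90) and Gbp4 (13.2 ± 1.60). Irgm and Gbp5 were the only neighbours there that overlapped. In siSlc39a2 PE, Mx2 (639 ± 106), Mx1 (215 ± 23.2) and Gbp2 (126 ± 19.1) led without overlap, and Igtp, Gbp1, Gbp5 and Irgm followed between 78.0 and 58.8 with neighbours that overlapped.

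Mx2 made up 18.9% ± 1.39 (SD, n = 3) of the summed FPKM of the 8 genes in siNeg and 36.3% ± 4.20 with PE, and 37.8% ± 2.19 after knockdown and 50.1% ± 1.02 after knockdown with PE. Igtp went the other way, from 26.9% ± 0.371 in siNeg and 18.8% ± 3.20 with PE to 7.90% ± 0.597 after knockdown and 6.16% ± 0.363 after knockdown with PE. The share of Mx1 was 2.12% ± 0.365 in siNeg and 17.0% in both knockdown groups. The share of Gbp1 was 6.15% ± 1.32 in siNeg and 1.90% ± 0.367 with PE, and 13.2% ± 0.0514 after knockdown and 5.76% ± 0.329 after knockdown with PE.

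**Figure D4:**
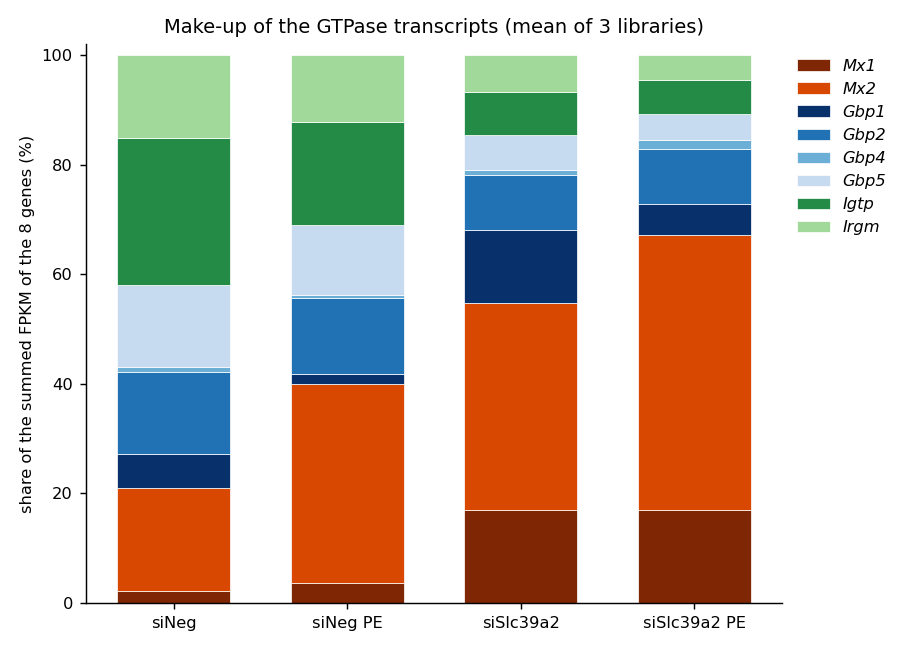
Share of each GTPase in the summed FPKM of the 8 genes (y axis, percent, mean of 3 libraries) in the 4 groups (x axis). The Mx2 segment grows from 18.9% in siNeg to 50.1% in siSlc39a2 PE while the Igtp segment shrinks from 26.9% to 6.16%.

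Other members of the interferon-inducible GTPase families, called other interferon GTPases here, were read beside the 8. Of 11 found in the table, 9 were tested. In siSlc39a2 against siNeg 7 were higher, against 4.57% of genes tested, and 0 lower, against 5.21%. Their median log2 fold change was 5.17 over the 9. Ifgga4, which is in the 7 and in this median, was under the filter cutoff of 0.364 CPM in every control library. It was tested only through its knockdown libraries. The 7 were Ifgga3 (8.16, listed as MGC108823), Ifi47 (6.59), Gbp7 (5.32, listed as LOC685067), Ifgga1 (5.17, listed as RGD1309362), Irgm2 (4.45), Gbp6 (3.37) and Ifgga4 (listed as RGD1305184), counted 2, 1 and 2 times in siNeg libraries and 329, 296 and 347 times after knockdown. Irgq, which lacks a working GTPase site, had -0.32 (SE 0.07, edgeR adjusted p = 0.00222) and Irgc, known from testis, 0.59 (SE 0.34, adjusted p = 0.168). Gbp3 had 0 counts in the controls and at most 3 in the knockdown libraries and was not tested, like Gvin1. The same 7 were higher in siSlc39a2 PE against siNeg PE, against 6.03% of genes tested. With PE in siNeg, Ifgga3 alone was called, against 3.80% of genes tested as higher, at 2.07 (SE 0.56, adjusted p = 0.00875). Its values rest on low counts in controls, 9.65, 4.85 and 14.35 in siNeg and 46.56, 23.43 and 62.17 in siNeg PE. The counts of Gbp6 were not whole in 11 libraries and those of Ifgga1 and Ifgga3 in all 12, with no single partner that made them whole, so the values of these 3 genes are uncertain, as is that of Irgm2, which shared reads with Igtp.

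The dynamin superfamily holds membrane-remodelling GTPases that share ancestry with Mx and guanylate-binding proteins. In siSlc39a2 against siNeg, 2 of its 14 genes read here were higher, against 4.57% of genes tested, and 1 lower, against 5.21%. Their median log2 fold change was 0.08. Mfn1, which fuses mitochondria, had 1.11 (SE 0.15, edgeR adjusted p = 4.51e-05), Atl2, which fuses endoplasmic reticulum, 1.01 (SE 0.14, adjusted p = 6.77e-05), and Dnm1, the neuronal endocytic dynamin, -1.73 (SE 0.10, adjusted p = 2.39e-08). Among 18 partners of the GTPases in autophagy conjugation and the inflammasome, 4 were higher, against 4.57%, and 0 lower, against 5.21%, with a median of 0.29. No gene of autophagy conjugation was among the 4. Means there went both ways, as in Map1lc3b (383 CPM in siNeg, 229 in siSlc39a2) and Atg16l1 (35.0 and 48.3). Nlrp3 had 0.387 and 0.345 CPM. The 4 were Casp4, the caspase of the noncanonical inflammasome (1.25, SE 0.13, adjusted p = 6.76e-06), the pore-former Gsdmd (1.05, SE 0.07, adjusted p = 1.17e-07), the DNA sensor Aim2 and Casp1, an inflammatory caspase. Aim2 was counted 2, 1 and 0 times in siNeg libraries and 82, 69 and 96 times after knockdown. Casp1 was counted 2, 2 and 6 times and 37, 31 and 44 times in the same groups. Both were under the filter cutoff of 0.364 CPM in every control library and were tested only through their knockdown libraries. Of 5 enzymes of prenylation, which anchors some guanylate-binding proteins in membranes, the log2 fold changes in siSlc39a2 against siNeg lay between -0.71 (Fntb) and 0.63 (Pggt1b), short of the threshold of 1. In siSlc39a2 PE against siNeg PE, 1 of the 5 was higher, against 6.03% of genes tested: Pggt1b, at 1.03 (SE 0.18, adjusted p = 0.000433).

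Among 23 tested genes of interferon signalling, in siSlc39a2 against siNeg 11 were higher, against 4.57% of genes tested, and 0 lower, against 5.21%. Of the 11, 1 was tested only through its knockdown libraries, Ifnb1. The median log2 fold change was 0.78, and it was the same with Ifnb1 at its lower bound. Ifnb1, the ligand interferon-beta, had 0 counts in all 6 control libraries, 246, 242 and 189 in siSlc39a2 and 46, 34 and 39 in siSlc39a2 PE. Against a floor of 3 counts per library it was at least 68.7-fold higher without PE and at least 13.2-fold higher with PE, and PE lowered it within the knockdown (log2 fold change -2.48, SE 0.20, edgeR adjusted p = 1.15e-05). Among the transcription factors of the pathway, log2 fold changes were 2.75 (Stat2), 2.10 (Irf9), 1.97 (Irf1) and 7.11 (Irf7), each past both thresholds. Ifng, the type II ligand, had at most 1 count in a library and was not tested. The feedback genes Usp18 and Socs1 were higher by 5.23 and 3.01, and Socs1 was lower with PE in the knockdown by -1.33 (SE 0.13, adjusted p = 4.13e-06).

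**Figure D5:**
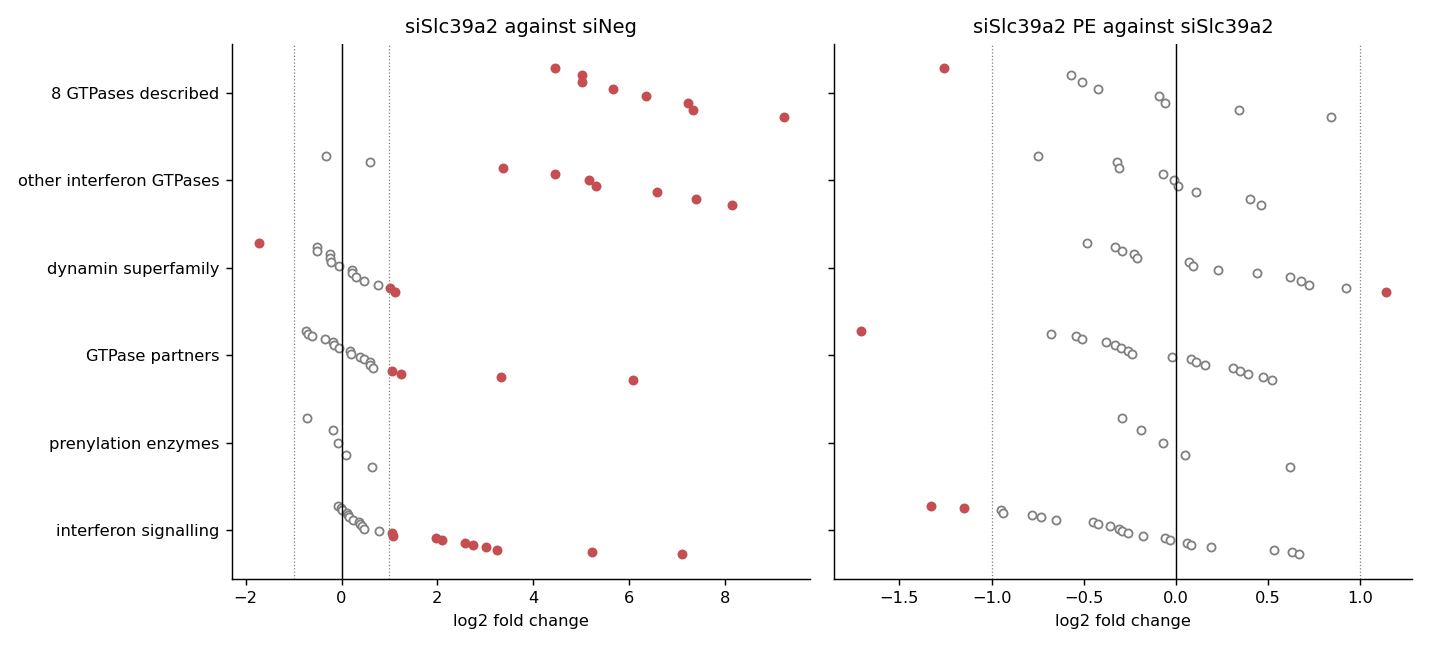
Log2 fold change (x axis) of every tested gene of 6 lists (y axis) in siSlc39a2 against siNeg on the left and in siSlc39a2 PE against siSlc39a2 on the right, with filled points past both thresholds. On the left all 8 GTPases and 7 of 9 other interferon GTPases are filled, against 3 of 14 in the dynamin superfamily. Of all genes tested, 4.57% were higher and 5.21% lower there. Ifnb1 is left out, and the points of Aim2, RGD1305184 and Casp1 rest on 0 to 6 counts in controls.

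By Pearson correlation of log2 CPM over the 12 libraries, the genes most like the Mx pair were LOC100911190 (r = 0.999), Parp9 (0.998) and Ddx58 (0.998). Ccl2 (0.999) and Ifit3 (0.998) were among the 3 genes most like the guanylate-binding genes, and Dhx58 and Ccl2 among the 3 most like Igtp and Irgm (0.999 each). These libraries fall into control and knockdown clusters, and the pooled values rest on the distance between them. Within the 6 knockdown libraries, r was 0.97 for Parp9 with the Mx pair, 1.00 for Ifit3 with the guanylate-binding genes and 0.94 for Dhx58 with Igtp and Irgm. Within the 6 control libraries it was 0.97, 0.16 and 0.65 for the same pairs.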

How the data were processed

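RNA of NRVMs was sequenced in 12 libraries, 3 per group. The authors deposited expected counts per gene, not normalized, and FPKM values of the same 18483 genes. HISAT, Bowtie2 and the build Rnor_6.0 are named in the submitters' processing notes, and the counting program and annotation are not given in the sources used here. Of the counts, 78.7% were whole. Counts were rounded, low genes were dropped with the filterByExpr function (edgeR 4.0.16, R 4.3.3; 13967 tested, 4516 not), and TMM normalization and 1 quasi-likelihood fit of 4 groups with 8 residual degrees of freedom gave p-values adjusted by Benjamini-Hochberg over all genes tested. The thresholds were an absolute log2 fold change of 1 and an adjusted p of 0.05. P-values measure the spread between these cultures, and floors (3 counts, 0.102 to 0.118 CPM) cover counting error only. None of the libraries was a copy of another (chi-square over its degrees of freedom 4.69 to 34.1 within groups).

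The methods of the study give limma for this step. It was run as an alternative with limma 3.58.1 on quantile-normalized log2(FPKM + 1), log2(FPKM + 0.1) and log2(count + 1). Other alternatives were DESeq2 1.42.0, RLE size factors, no filter, counts not rounded, the groups compared alone, a replicate block, adjusted p alone and leaving out each replicate. Summing genes that share reads was added after seeing the data. The edgeR fits with and without the block, DESeq2 and limma on counts were tested on simulated data. The methods give 48 h of PE and the labels 36 h.

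The GTPases and all gene lists were chosen with earlier results of these data known. Genes named were all members, every other interferon GTPase in the table, the up to 4 largest called changes of each other list, named interferon genes, the targeted gene and, per family, the 3 genes of highest correlation. Of the genes this rule names, 1 is not reported here. Aif1, Socs1, Fntb, Pggt1b, Map1lc3b, Atg16l1, Nlrp3 and the single cardiomyocyte and fibroblast markers were named after their values were seen. The interferon GTPases listed under a LOC, RGD or MGC symbol were matched through RefSeq gene IDs. Promoters are RefSeq, GRCr8.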

Additional observations from a re-analysis of the deposited data

Results flagged for a closer look

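For 3 members the knockdown effect differed with and without PE at an adjusted p under 0.05 in edgeR's test of the interaction, which compares the effects themselves. The difference, the effect with PE less that without, was -1.16 on the log2 scale for Mx1, -0.95 for Mx2 and -0.61 for Gbp5. In each case the rise with the knockdown was smaller in PE-treated cells, and 1.88% of genes tested were lower on adjusted p alone. The calls were close to the threshold. Leaving out 1 library lifted the adjusted p to 0.05 or over in 6 of 12 cases for Mx1, 9 for Mx2 and 10 for Gbp5. Mx1 and Mx2 were higher with PE in siNeg, while Gbp5 had a log2 fold change of 0.10 there and -0.51 with PE in the knockdown. Summed over Mx1 and Mx2, whose reads were shared, the difference was -1.06 (adjusted p = 0.0179).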

How the results depend on the processing

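In both knockdown comparisons all 8 members were called under each of the 16 alternatives. The size of the change in siSlc39a2 against siNeg moved most for Gbp4 and Mx1. Over the alternatives other than leaving out a library, the log2 fold change was 3.53 to 6.39 for Gbp4 and 7.33 to 9.31 for Mx1. With PE in siNeg, limma on log2(FPKM + 1) called 0 of the members in place of 3. For PE in the knockdown, adjusted p alone gave 5 members in place of 1. For the interaction, each of the 3 limma fits gave 0 members, adjusted p alone 3, and leaving out 1 library between 0 and 2, with 0 without siNeg replicate 1, siNeg PE replicate 3, siSlc39a2 replicate 1 or siSlc39a2 PE replicate 2 and 2 without siSlc39a2 PE replicate 3. Without siNeg replicate 2 or siNeg PE replicate 2 the 1 member called was Mx2 and not Mx1. Mx2 was -1.10 in both (edgeR adjusted p = 0.0480 and 0.0285). Signs turned only in values that did not pass. With PE in siNeg these were Gbp4 (0.10 without siNeg PE replicate 1 or 3, and -0.85 to 0.10 over all libraries left out), Gbp5 (-0.02, -0.03 and -0.02 in the 3 limma fits), Irgm (-0.10, -0.14 and -0.12 in those fits, -0.12 without siNeg replicate 1 and -0.10 without siNeg PE replicate 1, in a range of -0.12 to 0.12) and Igtp (0.08 with the reads of Irgm2). With PE in the knockdown Mx1 was 0.01 in both limma fits on FPKM and 0.21 with the reads of Mx2, and the interaction of Gbp1 was -0.62 under limma on log2(FPKM + 1) and -0.05 without siNeg replicate 2, in a range of -0.05 to 0.31. The cause was not tested. Over all genes, limma on log2(FPKM + 1) called 610, 287, 674, 583 and 85 genes in the 5 comparisons in the order of knockdown, PE, knockdown with PE, PE in the knockdown and interaction, and adjusted p alone 6873, 6935, 8001, 8378 and 504, in place of 1366, 922, 1621, 1469 and 138.

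Same-numbered replicates did not deviate together in every pair, so the numbers were not taken as pairs. Their correlations were -0.0107 to 0.0250 for the knockdown and 0.0535 to 0.3148 for PE. They were 0.0039 to 0.3199 for the knockdown with PE and -0.0904 to 0.2210 for PE in the knockdown. Differently numbered replicates gave -0.0300 to 0.0222, -0.2485 to 0.0892, -0.2256 to 0.1181 and -0.2491 to 0.2358 in the same order. For PE and for the knockdown with PE, some same-numbered values thus lay above all differently numbered ones. With the replicate block, the interaction of Mx1 was -1.16 (edgeR adjusted p = 0.00831), of Mx2 -0.94 (0.00959) and of Gbp5 -0.62 (0.0147), and 8, 3, 8, 1 and 1 members were called in the 5 comparisons, as without it. Depth limits Gbp4 and Mx1 in controls, where Gbp4 had 6 to 18 counts.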
